A study of Mus musculus with 18 samples.

Results

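The genes described here encode TRAF adaptors, the cellular inhibitors of apoptosis (cIAPs) and the ubiquitin-editing enzyme A20, with their nearest partners. They were chosen by gene symbol: Traf1, Traf2, Traf5, Traf6, Birc2, Birc3, Tnfaip3, Tnip1, Cflar and Ripk1. Of these 10 genes, 9 were measured, among 19938 genes in all. Ripk1 was not analysed here. They were followed in dendritic cells (DCs) that carry the chemokine receptor XCR1, sorted from the thymus of untreated C57BL/6 (B6) mice onto 18 Affymetrix mouse gene arrays. The gate took CD11c+, MHCII+ and CD8a+ cells without CD11b or CD172a. Immature cells were CCR7- and CD117+, and homeostatically matured cells were CCR7+ and CD117-. Each stage came from 3 backgrounds, with 3 arrays per group: wild-type mice under specific pathogen-free housing (CTRL), Ifnar1-KO mice under the same housing, which lack a chain of the type I interferon receptor, and germ-free wild-type mice (GF). All values below are log2 intensities as deposited, differences between them, or folds made from those differences. Nothing in the labels states if replicate arrays stem from different mice or sorts, so p-values measure the spread between these arrays, which may be technical. The age of the mice is not given either.

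TRAF proteins bind the cytoplasmic tails of TNF receptor family members, and TRAF6 also acts below Toll-like and IL-1 receptors. TRAF2 recruits the ubiquitin ligases cIAP1 (Birc2) and cIAP2 (Birc3), which add ubiquitin chains to RIPK1 and so start NF-kB signalling, and which together with TRAF2 and TRAF3 keep the kinase NIK low in resting cells. A20 (Tnfaip3) and its partner ABIN-1 (Tnip1) limit the same signal, and in mice the loss of A20 from DCs leads to their spontaneous activation. c-FLIP (Cflar) holds back caspase-8 at death receptors. Several of these genes, Traf1, Birc3, Tnfaip3 and Cflar among them, are known NF-kB targets in other cells.

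The stretches that lie just before 4 of these genes are printed because they differ in whether they hold a match to the NF-kB consensus, a motif of 10 bases searched on both strands. Tnfaip3 and Tnip1 were the members with a match in the 250 bases before an annotated start, and Traf1 and Birc2, which had the largest changes in CTRL, had none there. Each stretch is the 150 bases before the outermost annotated start, from RefSeq on GRCm38.p6, minus strand, with the motif in capitals. The positions are chr10:19015411-19015560 for Tnfaip3, chr11:54962957-54963106 for Tnip1, chr2:34961813-34961962 for Traf1 and chr9:7837132-7837281 for Birc2.
Tnfaip3: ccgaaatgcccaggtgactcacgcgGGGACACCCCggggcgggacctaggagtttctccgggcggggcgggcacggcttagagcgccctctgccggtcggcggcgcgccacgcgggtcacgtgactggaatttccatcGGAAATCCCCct
Tnip1: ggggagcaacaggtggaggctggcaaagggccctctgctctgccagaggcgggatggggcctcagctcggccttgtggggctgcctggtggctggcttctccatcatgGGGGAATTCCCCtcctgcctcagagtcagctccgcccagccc
Traf1: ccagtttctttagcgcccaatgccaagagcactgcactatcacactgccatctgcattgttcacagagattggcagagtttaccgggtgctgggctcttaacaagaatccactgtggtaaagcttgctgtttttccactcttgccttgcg
Birc2: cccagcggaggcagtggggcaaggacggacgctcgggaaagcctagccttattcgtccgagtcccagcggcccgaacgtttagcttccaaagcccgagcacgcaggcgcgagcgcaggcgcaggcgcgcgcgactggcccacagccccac

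The matches of Tnfaip3 lay 125 to 116 and 12 to 3 bases before the start. Those of Tnip1 overlap on both strands of a palindromic stretch, 42 to 31 bases before it. Of all 27025 genes with a RefSeq promoter window, 1204 (4.46%) held a match, and of the 9 members 2 did. A match describes these letters, and no match says only that these letters are not in the window.

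Between the 18 arrays, correlations were 0.974 to 0.996 within a group and 0.905 to 0.939 across the stages. The gates set the stages apart in the genes of the sort: in CTRL, Ccr7 was higher by 3.0 ± 0.35 (SE, adjusted p = 1.36e-05) in CCR7+ cells, and Kit, which encodes CD117, fell by 3.17 ± 0.34 (adjusted p = 4.57e-06). Xcr1 itself read 11.44 to 11.56 in CTRL CCR7- cells and 6.30 to 6.48 in CTRL CCR7+ cells. The mean of 11 markers of XCR1+ DC identity was 9.94 to 10.11 on the CCR7- arrays and 7.04 to 8.31 on the CCR7+ arrays, so the labelled identity had lower transcript levels after maturation, in 7 of the 11 markers past the test and with Batf3 higher. The mean of 18 measured thymocyte markers (of 20) was 4.46 to 5.04 on the CCR7- arrays and 5.09 to 5.95 on 8 CCR7+ arrays. It was 7.41 on the Ifnar1-KO CCR7+ replicate 2 array, which also had the lowest mean of identity markers. The mean of 6 CD172a+ DC markers was 3.87 to 4.14 on the CCR7- and 4.42 to 4.68 on the CCR7+ arrays. In CTRL 2 of the 6 rose, beside 12.6% of all genes called higher. The median change of these 6 was 0.07, with a range from -0.23 to 2.39. In CTRL Sirpa, which encodes CD172a, rose by 0.89 ± 0.28 (adjusted p = 0.0296), while Itgam, which encodes CD11b, stood at 3.67 to 3.92. The mean of 7 macrophage markers was 5.18 to 5.38 on the CCR7- and 4.6 to 4.94 on the CCR7+ arrays, and that of 6 thymic epithelium markers 4.84 to 5.10 and 5.01 to 5.33. In CTRL 2 of the 7 macrophage markers fell and 0 rose, beside 26.2% of all genes called in either direction. Their median change was 0.12, with a range from -3.60 to 0.30, so the lower mean does not describe most of that list. Means of plasmacytoid DC markers (6.22 to 7.25) and B cell markers (4.03 to 4.5) overlapped between the stages. As the members also changed with the stage, the part of other cell types in their changes was not tested. In sorted pools, fewer cells of a type and less RNA per cell cannot be told apart.

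All 9 measured members rose with maturation in CTRL mice. Birc2 changed most, 7.78-fold, followed by Traf1 at 3.80-fold, Cflar at 2.96-fold, Traf6 at 2.94-fold and Tnfaip3 at 2.77-fold. Birc3, Traf2, Traf5 and Tnip1 rose 1.94-fold to 2.25-fold. Over all genes, 12.6% were called higher in this comparison (adjusted p under 0.05, limma). The median change was 1.47 over the members and 0.07 over all genes. In 8 of the 9 members, all 9 CCR7+ arrays of the 3 backgrounds lay above all 9 CCR7- arrays, which was so for 7.00% of all genes. Traf5 was the exception.

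**Figure D1:**
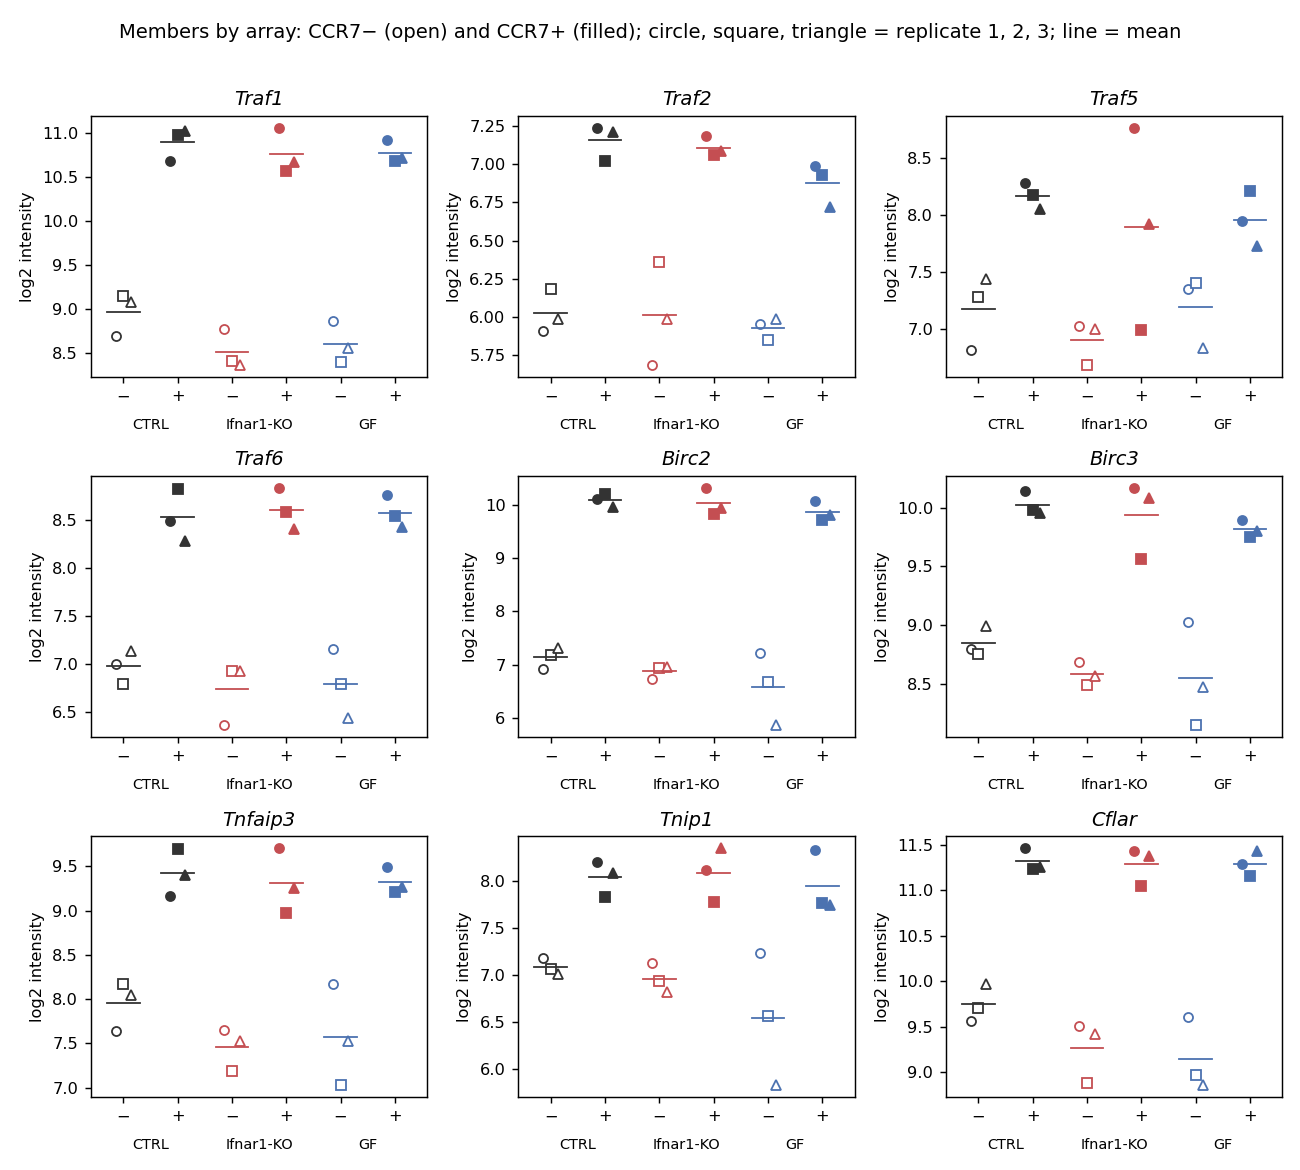
Log2 intensity (vertical axes, 1 scale per gene) of the 9 members on each of the 18 arrays, by background and stage; open symbols are CCR7- and filled symbols CCR7+ cells, symbol shape gives the replicate number and lines are group means. The filled symbols lie above all open symbols in 8 panels, and in Traf5 the Ifnar1-KO CCR7+ replicate 2 array, at 6.99, lies among the open ones.

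Among the TRAF adaptors, Traf1 (probeset 10481949, chr2:34941750-34961812, GRCm38.p6) encodes the family member that lacks the RING domain and pairs with TRAF2. It read 8.69, 9.14 and 9.07 on the CTRL CCR7- arrays and 10.69, 10.98 and 11.02 on the CTRL CCR7+ arrays. In Ifnar1-KO mice it read 8.77, 8.40 and 8.36 before and 11.06, 10.57 and 10.66 after maturation. In GF mice these values were 8.86, 8.40 and 8.56, and 10.92, 10.69 and 10.72. The stages were separated by 1.42 between the highest CCR7- and the lowest CCR7+ array. The change was 1.93 ± 0.17 in CTRL (SE, adjusted p = 6.48e-07), 2.25 ± 0.17 in Ifnar1-KO (adjusted p = 1.72e-07) and 2.17 ± 0.17 in GF mice (adjusted p = 2.27e-07).

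Traf2 (probeset 10480760, chr2:25517982-25546940) encodes the adaptor that brings the cIAPs to TNF receptors. Its values were 5.91, 6.18 and 5.99 in CTRL CCR7- cells and 7.24, 7.02 and 7.21 in CTRL CCR7+ cells. In Ifnar1-KO cells they were 5.69, 6.36 and 5.99, then 7.18, 7.06 and 7.08. In GF cells they were 5.95, 5.85 and 5.99, then 6.99, 6.93 and 6.72. The stages did not overlap, with a gap of 0.36, the narrowest among the 8 members without overlap. The change was 1.13 ± 0.14 in CTRL (adjusted p = 1.57e-05), 1.09 ± 0.14 in Ifnar1-KO and 0.95 ± 0.14 in GF mice.

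Traf6 (probeset 10474112, chr2:101678420-101701668) encodes the ligase that makes K63-linked chains below Toll-like receptors, IL-1 receptors and CD40. It read 7.0, 6.80 and 7.13 in CTRL CCR7- cells and 8.48, 8.83 and 8.29 in CTRL CCR7+ cells. In Ifnar1-KO cells the readings were 6.37, 6.93 and 6.93, then 8.83, 8.58 and 8.40. In GF cells they were 7.16, 6.80 and 6.44, then 8.76, 8.54 and 8.43. Every CCR7+ array was at least 1.13 above every CCR7- array. The change was 1.55 ± 0.20 in CTRL (adjusted p = 3.21e-05), 1.86 ± 0.20 in Ifnar1-KO (adjusted p = 6.71e-06) and 1.78 ± 0.20 in GF mice (adjusted p = 1.00e-05).

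Traf5 (probeset 10361139, chr1:191997203-192092599), which encodes an adaptor that serves OX40, CD27 and CD40, was the least certain member. It read 6.82, 7.28 and 7.44 in CTRL CCR7- cells and 8.28, 8.18 and 8.05 in CTRL CCR7+ cells. In Ifnar1-KO cells it read 7.02, 6.69 and 7.0, then 8.76, 6.99 and 7.92. In GF cells it read 7.35, 7.40 and 6.83, then 7.95, 8.21 and 7.72. The SD of the Ifnar1-KO CCR7+ group was 0.89, against 0.11 to 0.32 in the other 5 groups. The low array was replicate 2, the one with the thymocyte marker mean of 7.41, and the part of those markers in the Traf5 value was not tested. The change passed the test in CTRL at 0.99 ± 0.32 (adjusted p = 0.0333) and in Ifnar1-KO at 0.99 ± 0.32 (adjusted p = 0.0411). In GF mice it was 0.76 ± 0.32 and did not pass (adjusted p = 0.116). The CTRL call was lost without any 1 of 5 CTRL arrays, with adjusted p up to 0.134. Without Ifnar1-KO CCR7+ replicate 2 the Ifnar1-KO change was 1.44, and without replicate 1 of that group it was 0.55 (adjusted p = 0.198).

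The cIAP genes are neighbours on chromosome 9 and encode closely related proteins that share older names, so the probeset identifies each. Birc2 (cIAP1, probeset 10590791, chr9:7818226-7837131) read 6.91, 7.17 and 7.32 in CTRL CCR7- cells and 10.11, 10.21 and 9.96 in CTRL CCR7+ cells. In Ifnar1-KO cells it read 6.73, 6.94 and 6.96, then 10.32, 9.83 and 9.95. In GF cells it read 7.21, 6.68 and 5.87, then 10.08, 9.71 and 9.81. The stages were 2.40 apart at their nearest arrays, the widest gap among the members, while the GF CCR7- arrays spread over more than 1 log2 unit. The change was 2.96 ± 0.25 in CTRL (adjusted p = 4.22e-07), 3.16 ± 0.25 in Ifnar1-KO (8.93-fold, adjusted p = 2.73e-07) and 3.28 ± 0.25 in GF mice (9.74-fold, adjusted p = 1.77e-07). A second probeset annotated to Birc2, 10590799, rose by 2.22 in CTRL, 2.70 in Ifnar1-KO and 2.64 in GF mice.

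Birc3 (cIAP2, probeset 10590801, chr9:7847468-7873205) read 8.80, 8.75 and 9.0 in CTRL CCR7- cells and 10.14, 9.98 and 9.95 in CTRL CCR7+ cells. In Ifnar1-KO cells it read 8.69, 8.49 and 8.57, then 10.17, 9.56 and 10.08. In GF cells it read 9.03, 8.16 and 8.48, then 9.90, 9.75 and 9.80. The stages did not overlap, with a gap of 0.53. The change was 1.17 ± 0.18 in CTRL (adjusted p = 0.000196), 1.35 ± 0.18 in Ifnar1-KO and 1.26 ± 0.18 in GF mice. The probes of Birc2 and Birc3 could share signal in part, which was not tested.

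Cflar (probeset 10346562, chr1:58711311-58758884), the c-FLIP gene, read 9.56, 9.71 and 9.98 in CTRL CCR7- cells and 11.46, 11.23 and 11.26 in CTRL CCR7+ cells. In Ifnar1-KO cells it read 9.51, 8.88 and 9.42, then 11.43, 11.04 and 11.37. In GF cells it read 9.61, 8.97 and 8.86, then 11.28, 11.16 and 11.43. All CCR7+ arrays fell between 11.04 and 11.46, a narrower range than the 8.86 to 9.98 of the CCR7- arrays. The change was 1.57 ± 0.20 in CTRL (adjusted p = 2.51e-05), 2.01 ± 0.20 in Ifnar1-KO (adjusted p = 2.63e-06) and 2.14 ± 0.20 in GF mice (adjusted p = 1.33e-06). Both other Cflar probesets rose too, by 1.67 and 1.73 in CTRL mice.

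Tnfaip3 and Tnip1, the members that limit the signal, rose along with those that pass it on. Tnfaip3 (A20, probeset 10368144, chr10:19000910-19015410) removes K63-linked chains from RIPK1 and other targets. It read 7.64, 8.17 and 8.04 in CTRL CCR7- cells and 9.16, 9.70 and 9.40 in CTRL CCR7+ cells. In Ifnar1-KO cells it read 7.65, 7.19 and 7.53, then 9.71, 8.97 and 9.25. In GF cells it read 8.17, 7.03 and 7.53, then 9.49, 9.22 and 9.26. The stages were 0.80 apart at their nearest arrays. The change was 1.47 ± 0.26 in CTRL (adjusted p = 0.000509), 1.86 ± 0.26 in Ifnar1-KO (adjusted p = 7.35e-05) and 1.75 ± 0.26 in GF mice (adjusted p = 0.000123).

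Tnip1 (probeset 10385941, chr11:54910787-54962956) encodes ABIN-1, which binds A20 and ubiquitin chains. It read 7.18, 7.07 and 7.01 in CTRL CCR7- cells and 8.21, 7.83 and 8.09 in CTRL CCR7+ cells. In Ifnar1-KO cells it read 7.12, 6.94 and 6.82, then 8.12, 7.77 and 8.35. In GF cells it read 7.24, 6.57 and 5.83, then 8.33, 7.76 and 7.74. The stages did not overlap, and the GF CCR7- arrays were the most spread (SD 0.70). The change was 0.96 ± 0.27 in CTRL (adjusted p = 0.0154), 1.12 ± 0.27 in Ifnar1-KO (adjusted p = 0.00665) and 1.40 ± 0.27 in GF mice (adjusted p = 0.00123). The CTRL call was lost without CTRL CCR7+ replicate 1 (0.88, adjusted p = 0.0563).

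The study asked whether maturation needs type I interferon signalling or a microflora. In Ifnar1-KO mice 9 of 9 members rose, against 9.42% of all genes called higher, with a median change of 1.86. In GF mice 8 of 9 rose, against 9.53% of all genes, with a median of 1.75. The 3 maturation comparisons each have arrays of their own, while both differences from CTRL share the CTRL arrays. No member was called for a different maturation change in Ifnar1-KO or GF mice, and 0% of all genes were in either comparison. At an unadjusted p under 0.05, the differences held 0 members in either comparison, beside 4.52% of all genes for Ifnar1-KO and 3.31% for GF. The differences nearest to the threshold were those of Cflar, 0.57 larger in GF than in CTRL mice (95% interval -0.02 to 1.17) and 0.44 larger in Ifnar1-KO (95% interval -0.15 to 1.04). The other Cflar probesets gave differences of 0.29 and 0.47 in GF and of 0.35 and 0.55 in Ifnar1-KO mice. For Birc2 the intervals ran from -0.55 to 0.95 in Ifnar1-KO and from -0.42 to 1.07 in GF mice. For Traf2 they ran from -0.45 to 0.37 and from -0.59 to 0.23. The interval stayed within 1 log2 unit of 0 in 7 of 9 members for Ifnar1-KO and in 4 of 9 for GF. The median half-width of these intervals was 0.61, without adjustment for the number of genes. Calls used p-values adjusted over all genes, so differences above that size could also be missed with this number of arrays.

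**Figure D2:**
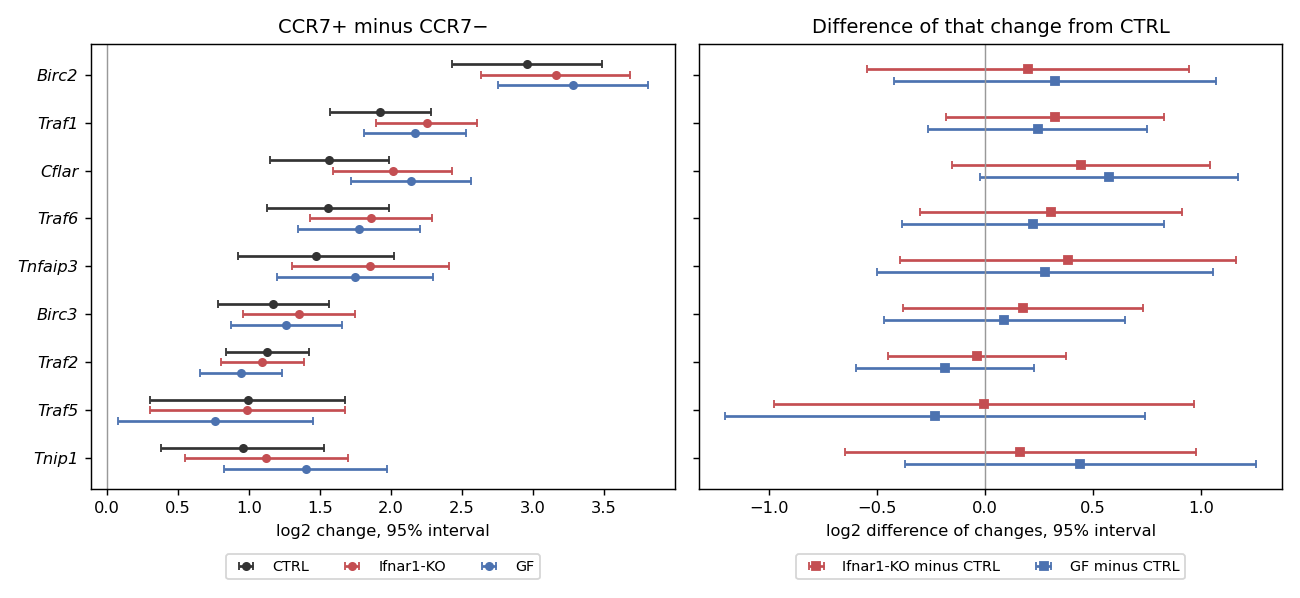
Left, log2 change with maturation (CCR7+ minus CCR7-) of each member in CTRL, Ifnar1-KO and GF mice, with 95% intervals from limma; right, the difference of that change from CTRL. All 27 changes on the left lie above 0, with the 3 of Birc2 between 2.96 and 3.28, while all 18 intervals on the right include 0.

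Within a stage no member was called between backgrounds in any of the 4 comparisons. Of all genes, 0% were called between Ifnar1-KO and CTRL in CCR7- cells and 0.0150% in CCR7+ cells, and for GF against CTRL these shares were 0.0150% and 0.0301%. At both stages most differences ran downward, by more in immature cells. In Ifnar1-KO CCR7- cells 9 of 9 members were below CTRL, with a median difference of -0.27 (0.043 over all genes). At an unadjusted p under 0.05 stood Traf1 (-0.46 ± 0.17, adjusted p = 0.681) and Cflar (-0.48 ± 0.20, adjusted p = 0.681), beside 7.03% of all genes. In GF CCR7- cells 8 of 9 were below CTRL, with a median of -0.37 (0.035 over all genes). Cflar (-0.60 ± 0.20), Birc2 (-0.55 ± 0.25) and Traf1 (-0.37 ± 0.17) stood at that level (adjusted p = 0.766 for each), beside 6.32% of all genes. The second Birc2 probeset differed from CTRL by -0.18 ± 0.24 in GF CCR7- cells and by 0.24 ± 0.24 in GF CCR7+ cells. Both other Cflar probesets were also below CTRL in GF CCR7- cells (-0.50 and -0.67). In CCR7+ cells 7 of 9 members were below CTRL in Ifnar1-KO and 8 of 9 in GF. The medians there were -0.06 for Ifnar1-KO and -0.12 for GF (0.0016 and 0.0055 over all genes). No member had an unadjusted p under 0.05 in CCR7+ cells, against 2.92% and 5.86% of all genes.

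The lower GF CCR7- values came from replicates 2 and 3, where the members lay at a median of -0.52 and -0.43 from their CTRL means, with 8 and 9 of 9 below. GF CCR7- replicate 1 lay at 0.15, with 3 of 9 below. The 3 Ifnar1-KO CCR7- arrays lay at -0.24, -0.36 and -0.26, and the CTRL CCR7- arrays themselves at -0.19, 0.04 and 0.15. Ccr7, a gene of the gate, read 9.03, 8.98 and 8.95 on the CTRL CCR7- arrays. It read 7.85, 8.54 and 7.29 on those of Ifnar1-KO and 9.09, 7.25 and 7.77 on those of GF mice. GF CCR7- replicate 1 was near CTRL in both Ccr7 and the members, and the other 5 Ifnar1-KO and GF arrays were lower in both. Their order was not the same throughout. Among the Ifnar1-KO CCR7- arrays, replicate 2 had the highest Ccr7 (8.54) and the lowest median of the members (-0.36). Tnfrsf4, the gene of the receptor OX40, read 5.92 on GF CCR7- replicate 1 and 4.52 and 4.98 on replicates 2 and 3, against 5.35 to 5.94 in CTRL. Other receptor genes that rose strongly with maturation did not share this. In GF CCR7- cells Fas and Tnfrsf1b differed from CTRL by -0.01 and -0.10, against -0.53 for Tnfrsf4. In Ifnar1-KO CCR7- cells they differed by 0.47 and 0.11, against -0.89 for Tnfrsf4. The part of the maturity of the gated cells in these differences was not tested.

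**Figure D3:**
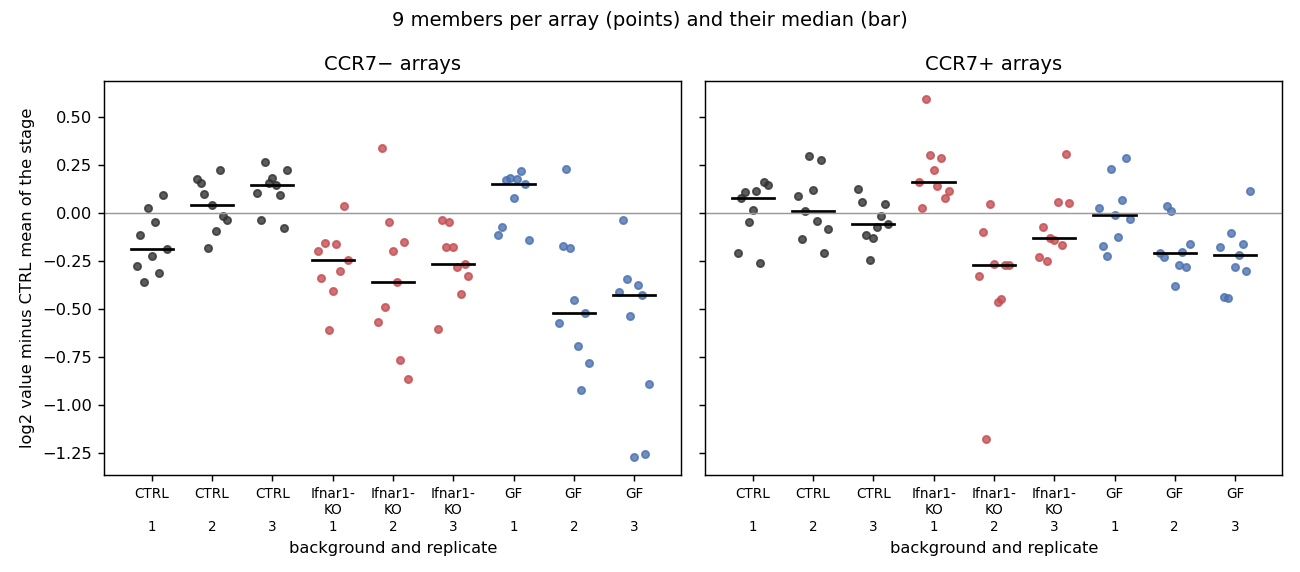
Log2 value minus the CTRL mean of the same stage for the 9 members (points) on every array, with the median of the members as a bar; CCR7- arrays on the left and CCR7+ arrays on the right. GF CCR7- replicates 2 and 3 have medians of -0.52 and -0.43 and replicate 1 of 0.15, and the lowest CCR7+ point is Traf5 on Ifnar1-KO replicate 2, at -1.18.

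In every member the 3 CCR7+ groups had the 3 highest means of the 6 groups. Neighbours in that order within a stage overlapped in their arrays for 6 of the 9 members. In CCR7- cells, Birc3 and Cflar had all 3 CTRL arrays above all 3 Ifnar1-KO arrays (2 of 9 members, beside 15.4% of all genes without overlap in either direction), and 0 of 9 were apart between CTRL and GF (14.8% of all genes). In CCR7+ cells, Traf2 and Birc3 had all 3 CTRL arrays above all 3 GF arrays (2 of 9, beside 11.5% of all genes), and 0 of 9 were apart between CTRL and Ifnar1-KO (6.94% of all genes). For Traf2 the lowest CTRL array was at 7.02, the lowest Ifnar1-KO array at 7.06 and the highest GF array at 6.99. None of these members was called between backgrounds. When each CCR7+ array was set beside the CCR7- array of the same background and number, all 9 differences were above 0 in each member. In the 8 members whose stages did not overlap, any pairing would give this, so it adds nothing to that count. Only Traf5 could have differed, and in GF mice the numbers did not pair. The differences ran from 2.64 to 3.95 in Birc2, from 1.84 to 2.30 in Traf1 and from 0.31 to 1.74 in Traf5.

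The members' profiles over the 18 arrays resembled each other, as those of any genes that follow the stage do. Birc2 was most like Traf6 among the members (Pearson r = 0.984 over 18 arrays), Traf1 most like Tnfaip3 (r = 0.982) and Birc3 most like Cflar (r = 0.979). Traf5 had the lowest best match (r = 0.839, with Birc3). In the whole table the profiles most like that of Birc2 were Ncoa7 (r = 0.995), Tank (r = 0.993), Irf1 (r = 0.993), Gbp4 (r = 0.991) and Tspan3 (r = 0.991). Those most like Traf1 were Relb (r = 0.993), Il15 (r = 0.992), Il15ra (r = 0.992), Cd40 (r = 0.991) and Gbp5 (r = 0.991). Those most like Cflar were Pik3r1 (r = 0.992), then Gramd3, Cd274, Ccser2 and Samhd1 (r = 0.987 to 0.988).

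The partners of these proteins did not move together. Of 73 genes in 6 lists around the pathway 67 were measured; 21 rose and 10 fell with maturation in CTRL, and 36 did not pass. Their share called in either direction, and that of each list below, stands beside 26.2% of all genes in CTRL. The median change of the 67 genes was 0.16. In Ifnar1-KO mice 20 rose and 7 fell (20.2% of all genes called), and in GF mice 18 rose and 8 fell (21.3% of all genes). No listed gene was called in the 6 comparisons that involve a difference between backgrounds, where 0% to 0.0301% of all genes were called.

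**Figure D4:**
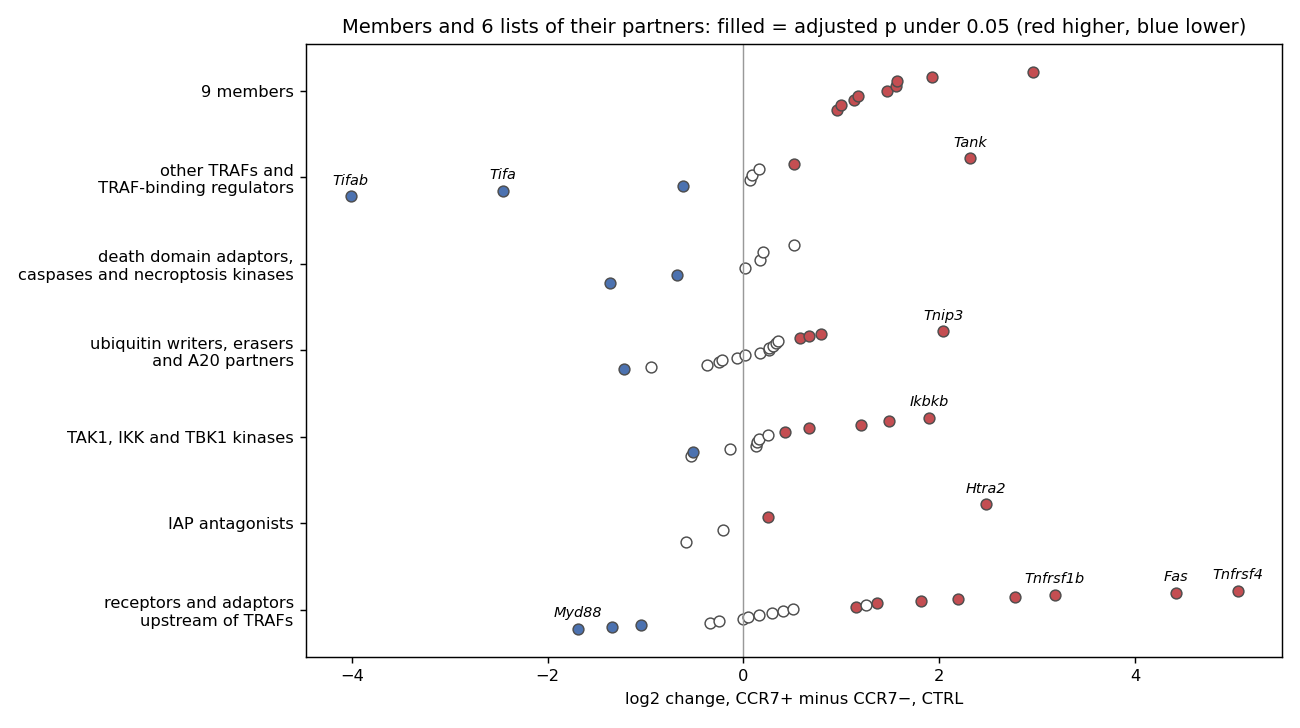
Log2 change with maturation in CTRL mice (horizontal axis) for the 9 members and the measured genes of 6 partner lists; each point is a gene, red for called higher, blue for called lower and open for not passed. All 9 members lie right of 0, from 0.96 to 2.96, while the receptor list runs from -1.69 (Myd88) to 5.05 (Tnfrsf4).

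Among 20 measured receptors and adaptors upstream of TRAFs, 8 rose and 3 fell in CTRL. Tnfrsf4 went from 5.35 to 5.94 in CTRL CCR7- cells to 10.65 to 10.81 in CTRL CCR7+ cells, a rise of 5.05 ± 0.26 (33.1-fold, adjusted p = 3.45e-09). Fas, the death receptor, rose by 4.42 ± 0.50 (21.4-fold, adjusted p = 9.46e-06). The TNF receptor genes moved in opposite directions: Tnfrsf1b, encoding TNFR2, which binds TRAF2 directly, rose by 3.18 ± 0.28 (adjusted p = 7.27e-07), and Tnfrsf1a, encoding TNFR1 with its death domain, fell by 1.34 ± 0.22 (adjusted p = 0.000322). Tnfrsf1a read 7.48 to 8.25 before and 6.39 to 6.78 after maturation in CTRL, and Tnfrsf1b 6.15 to 6.62 and 9.44 to 9.61. Their changes passed the test in the same directions in Ifnar1-KO (3.13 and -1.01) and GF mice (3.33 and -1.22). The Toll-like receptor adaptors Myd88 and Tirap, which act above TRAF6, fell by 1.69 ± 0.22 and by 1.04 ± 0.25.

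In the list of other TRAFs and TRAF-binding regulators, 2 of 8 measured genes rose and 3 fell in CTRL. Tank, whose product binds TRAFs and the kinase TBK1, rose by 2.31 ± 0.23 (adjusted p = 2.17e-06). Tifa, which oligomerises TRAF6, fell by 2.46 ± 0.24 (adjusted p = 2.25e-06), and its relative Tifab fell by 4.01 ± 0.13 (adjusted p = 9.07e-11). Traf3ip2 rose by 0.51 and Traip fell by 0.62. In Ifnar1-KO and GF mice Tank rose by 2.37 and 2.41, Tifa fell by 2.33 and by 1.32, and Tifab fell by 3.46 and by 3.88. Traf3ip2 did not pass in Ifnar1-KO (0.33, adjusted p = 0.249) or GF mice (0.18, adjusted p = 0.562). Traip fell by 0.56 in GF mice and did not pass in Ifnar1-KO mice (-0.30, adjusted p = 0.128).

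In the list of TAK1, IKK and TBK1 kinases and their partners, 5 of 12 measured genes rose and 1 fell. Ikbkb, the IKK2 kinase of the canonical NF-kB route, rose by 1.90 ± 0.33 (adjusted p = 0.000531). Map3k14, which encodes NIK, the kinase that TRAF2 and the cIAPs keep low as a protein, rose by 1.49 ± 0.35 (adjusted p = 0.00475), and Tbk1 rose by 1.20 ± 0.22. All 3 also passed the test in Ifnar1-KO (1.99, 1.78 and 1.09) and GF mice (2.11, 1.40 and 0.84). Tab1 fell by 0.51 in CTRL and did not pass in Ifnar1-KO (-0.16, adjusted p = 0.579) or GF mice (-0.14, adjusted p = 0.617).

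Of 17 ubiquitin writers, erasers and A20 partners 4 rose and 1 fell. Tnip3, encoding the A20 binder ABIN-3, rose by 2.04 ± 0.51 (adjusted p = 0.00738), from 5.44 to 6.22 in CCR7- cells to 7.71 to 8.32 in CCR7+ cells of CTRL mice. It also rose in Ifnar1-KO (2.10) and GF mice (2.98). Otud7b, a deubiquitinase of the A20 family, rose by 0.80 and Sharpin, a subunit of the linear ubiquitin ligase, by 0.67. Otud7b also rose in Ifnar1-KO mice (0.70, adjusted p = 0.0198) but did not pass in GF mice (0.47, adjusted p = 0.115). Sharpin passed in neither (0.37 and 0.28, adjusted p = 0.0945 and 0.212). Xiap, another gene of the IAP family, fell by 1.22 ± 0.37 (adjusted p = 0.0225), the opposite direction from Birc2 and Birc3. In Ifnar1-KO and GF mice it changed by -0.79 in each and did not pass (adjusted p = 0.169 and 0.159).

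In the list of death domain adaptors, caspases and necroptosis kinases, 0 of 6 measured genes rose and 2 fell in CTRL. Ripk3, the necroptosis kinase, fell by 1.36 ± 0.23 (adjusted p = 0.000432) and Casp8 by 0.68 ± 0.14 (adjusted p = 0.00246). Ripk3 also fell in Ifnar1-KO mice by 1.30 and in GF mice by 1.66. Casp8 fell in GF mice by 0.54, and its value of -0.21 in Ifnar1-KO mice did not pass. Of 4 IAP antagonists Htra2, a mitochondrial protease that can cleave IAPs, rose by 2.48 ± 0.14 (adjusted p = 1.28e-08) and Septin4 by 0.25. Htra2 also rose in Ifnar1-KO (2.76) and GF mice (2.61), while Septin4 did not pass there (0.03 and 0.05, adjusted p = 0.901 and 0.737).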

How the data were processed

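Thymic XCR1+ DCs of 6 groups, 3 arrays each, were hybridised after NuGEN Pico amplification of between 0.7 and 7.3 ng RNA, per the labels' protocols. The deposited values are log2 intensities made by the authors with RMA in oligo, per the submitters' processing notes; the software versions and the set of arrays normalised jointly are not stated in the sources. RMA pulls in low signals, so folds of dim genes may be understated. Codes of some arrays carry a trailing r that the labels leave unexplained. Arrays have no read depth, and their number limits precision.

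Of 35556 probesets, 21789 carried exactly 1 symbol; 1621 with several and 12146 with no listed symbol were left out. Where several probesets shared a gene (999 genes), that of the highest mean represented it (19938 genes, none filtered). limma 3.58.1 (R 4.3.3) fitted 1 mean per group over all arrays (14.4 degrees of freedom after eBayes) and 9 comparisons, with Benjamini-Hochberg adjustment over all genes and a threshold of 0.05. The fit was tested on simulated data. SEs and 95% intervals use a spread pooled over the groups. Positions and promoters come from RefSeq (GRCm38.p6), which does not place probes.

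Members and lists were chosen with earlier results of these data known, so the counts are descriptions. All measured members are named; of each list up to 3 called genes per direction with the largest CTRL change; of likeness, the 5 closest genes for the 3 members that changed most, without predicted genes.

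Pairing by replicate number was checked by correlating deviations across stages: CTRL pairs gave 0.188, 0.147 and 0.100 (just above the 0.1 asked for), Ifnar1-KO pairs 0.285, 0.321 and 0.236, and GF pairs 0.267, 0.0035 and 0.0296, so GF numbers did not pair. The main fit has no block. Other fits used a replicate block, the r mark as covariate, array weights, an intensity trend, median-centred arrays, genes of at least median level, probeset means, the compared groups alone, or all arrays but each in turn. After seeing the data, fits without both Ifnar1-KO replicate 2 arrays and without GF replicates 2 and 3 were added. Figures used matplotlib 3.10.9.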

Additional observations from a re-analysis of the deposited data

How the results depend on the processing

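Over 28 alternatives, the maturation changes of Traf1, Traf2, Traf6, Birc2, Tnfaip3 and Cflar passed the test in all 3 backgrounds, and no maturation change of any member turned direction. Leaving out each array gave 7 to 9 members called higher in CTRL, 8 to 9 in Ifnar1-KO and 8 to 9 in GF mice, and 27 to 35, 25 to 28 and 23 to 29 other pathway genes called. The other alternatives gave 8 to 9, 8 to 9 and 7 to 9 members. The replicate block, which has pairing to allow for in CTRL and Ifnar1-KO alone, changed no member's call: 9, 9 and 8 members were called higher, among 5556, 4353 and 4555 genes called in all. Without GF replicates 2 and 3 at both stages, which leaves 1 GF array per stage assumed to vary like the others, 16 other pathway genes were called in GF mice in place of 26, with fewer arrays in the fit. In that fit Birc3 just missed the threshold in GF mice (0.87, adjusted p = 0.0502), as did Tnip1 when the fit held only the GF groups (adjusted p = 0.0505). Traf5 was lost in 6 alternatives in CTRL and 12 in Ifnar1-KO, with adjusted p up to 0.134 and 0.22, and passed in GF mice in 4, for example at adjusted p = 0.0239 without both Ifnar1-KO replicate 2 arrays; the cause was not tested. All counts of members called between backgrounds were 0 in every alternative. No array depth exists, and the pooled 95% half-width of a member's change had a median of 0.43.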
